A study of Mus musculus with 12 samples.

Results

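Transcripts of 10 genes that carry glucose through glycolysis were followed in mouse leukemic blasts: the glucose transporter Slc2a1, the enzymes Hk2, Pfkl, Aldoa, Gapdh, Pgk1, Eno1, Pkm and Ldha, and Pdk1, which holds pyruvate back from the mitochondria. They were taken by gene symbol from the 24454 genes of the RNA sequencing table. All 10 had a row, and 9 passed the filter for testing, which was a mean of at least 10 normalized counts over 12 libraries and left 11476 genes. A normalized count is the number of reads on a gene divided by 1 size factor per library. The blasts arose from fetal liver cells of wild-type (WT) mice or of mice that lack STAT3β (Δβ), the shorter splice form of the transcription factor STAT3. All of these cells had received the leukemia fusion gene MLL-AF9 by retrovirus together with the fluorophore Venus, and all grew in young male NOD.Cg-Prkdc scid Il2rg tm1Wjl/SzJ hosts, which lack their own T, B and NK cells. Venus+ cells were sorted from the spleen (SP) and bone marrow (BM) once the animals were diseased, without a further treatment, so the host was shared by all 4 groups and the genotype was that of the transplanted cells only. Each group (WT SP, Δβ SP, WT BM and Δβ BM) had 3 libraries. The age at collection, and how many transformed lines these libraries came from, are not given in the sources used here.

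Glycolysis splits glucose into pyruvate in the cytosol and yields ATP without oxygen. Slc2a1 (GLUT1) lets glucose into the cell, hexokinases trap it as glucose-6-phosphate, and phosphofructokinase sets the pace of the committed step. Aldolase cleaves the sugar, after which GAPDH, PGK1, enolase and pyruvate kinase carry the triose phosphates to pyruvate, and LDHA turns pyruvate into lactate. PDK1 phosphorylates pyruvate dehydrogenase and so turns it off. Proliferating and leukemic cells commonly use this route at a high rate, and several of these genes are textbook targets of HIF-1 and MYC.

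The sequences of the members bear on how well their reads could be counted. Each member was represented by the GENCODE M21 transcript (GRCm38) that matches the RefSeq entry of its row, and every window of 50 bases was looked up, on both strands, in the transcripts of all other genes. Hk2 (NM_013820, chr6:82725025-82774454, minus strand) and Pdk1 (NM_172665, chr2:71873224-71903858, plus strand) shared 0% of their windows. Gapdh (NM_008084, chr6:125161715-125166467, minus strand) shared 82.5% with 222 other genes, of which 213 are annotated as pseudogenes. Eno1 (NM_023119, chr4:150236721-150248879, plus strand) shared 72.2%, 70.5% with its copy Eno1b alone, and Pgk1 (NM_008828, chrX:106187100-106203699, plus strand) shared 68.0%, nearly all of it with the pseudogene Pgk1-rs7. The contrast is shown by the first 60 coding bases of Hk2, which occur in 0 other genes, and of Pgk1, which occur unchanged in 1 other gene, a pseudogene. The start codon is in capitals.
Hk2 coding start: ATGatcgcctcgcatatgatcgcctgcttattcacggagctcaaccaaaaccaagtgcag
Pgk1 coding start: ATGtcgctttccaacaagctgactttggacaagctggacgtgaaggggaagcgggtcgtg
The first 60 coding bases of Gapdh recur in 34 other genes, 32 of them pseudogenes.

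Promoters were read from RefSeq windows on GRCm38.p6, 17 windows for the 10 genes, each running from 250 bases before a transcription start to 50 after it. ACGTG, the core of the hypoxia response element that HIF-1 binds, was searched on both strands. It was present in 8 of the 17 windows (47.1%), beside 19.6% of 32851 windows of all genes. By gene it was present in 7 of the 10, beside 5886 of 27025 genes. The Aldoa windows with a match overlap and hold the same site. Eno1, Pdk1 and Pfkl had none. CACGTG, the E-box bound by MYC and MAX, overlaps ACGTG and counts for it once on each strand. It was found in 1 of the 17 windows (5.88%), beside 7.15% of all windows. The stretches before the start are shown for Hk2 and Pkm, the 2 members that came nearest to a difference, and for Ldha, whose 5 matches were the most. Capitals mark ACGTG on either strand. The Pkm stretch precedes the second of its annotated starts, and the window of the first start had no match.
Hk2, chr6:82774455-82774704, minus strand: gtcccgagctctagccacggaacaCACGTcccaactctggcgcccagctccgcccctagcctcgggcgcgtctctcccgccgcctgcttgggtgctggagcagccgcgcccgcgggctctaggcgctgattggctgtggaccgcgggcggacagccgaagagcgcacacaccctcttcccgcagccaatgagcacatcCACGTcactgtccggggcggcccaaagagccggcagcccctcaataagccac
Pkm, chr9:59656977-59657226, plus strand: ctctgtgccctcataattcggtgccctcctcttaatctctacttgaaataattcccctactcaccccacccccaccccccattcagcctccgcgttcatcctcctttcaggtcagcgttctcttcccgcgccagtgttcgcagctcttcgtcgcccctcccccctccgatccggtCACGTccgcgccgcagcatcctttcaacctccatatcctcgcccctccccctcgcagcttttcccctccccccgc
Ldha, chr7:46845554-46845803, plus strand: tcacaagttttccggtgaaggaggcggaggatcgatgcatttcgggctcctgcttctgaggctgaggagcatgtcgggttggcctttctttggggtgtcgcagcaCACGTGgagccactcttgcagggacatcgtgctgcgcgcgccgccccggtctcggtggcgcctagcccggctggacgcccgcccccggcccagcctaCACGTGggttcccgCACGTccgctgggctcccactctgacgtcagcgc
Both CACGTG runs lie in the Ldha stretch. These matches are a description of the letters, and no binding was measured.

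Library depth ran from 9001051 to 13859727 reads on genes, so that 1 read equalled 0.775 to 1.17 normalized counts. Stat3, the gene whose β form is missing in Δβ blasts, had 2349 to 4430 normalized counts over the 12 libraries. Δβ differed from WT by -0.32 on the log2 scale in SP (limma adjusted p = 0.375) and -0.10 in BM (limma adjusted p = 1), and counts per gene cannot check the loss of 1 splice form. The blast and myeloid markers Ptprc, Kit, Mpo, Elane, Itgam, Hoxa9 and Meis1 had at least 3 reads in every library. The 7 erythroid markers together had 4.65 to 14.9 normalized counts per library, although the 4 globin genes among them were listed at 0 throughout. The 3 B cell markers had 3.50 to 50.1 and the 3 platelet markers 9.92 to 58.0. The 3 T and NK cell markers had 0 to 113, highest in Δβ BM replicate 1. The 8 macrophage markers had 2997 to 8561, and the 4 endothelial or stromal markers 782 to 2524, mostly Pecam1. The content of other cells was not tested. WT SP replicates 1 and 2 stood apart from the other 10 libraries in some myeloid genes. Itgam, an integrin of myeloid cells, had 26293 and 21981 normalized counts there and 7855 to 16687 elsewhere, and Ptprc (CD45) had 20833 and 14695 beside 5254 to 10224. Ly6g, a marker of mature neutrophils, had 606 and 491 beside 60.9 to 372. Cxcr2, on the same marker list as Ly6g, had 652 and 920 beside 71.0 to 591. Of the macrophage markers, Hmox1 had 3925 and 1402 beside 142 to 619, and Adgre1 3880 and 3385 beside 1733 to 3264. Vcam1 went the other way, with its lowest level, 699, in WT SP replicate 1. That library also had the lowest Hoxa9 (798), Meis1 (516) and Kit (439) of all 12, and WT SP replicate 2 had 2060, 1423 and 562. The neutrophil granule genes Camp, Ltf and Ngp did not set these libraries apart, since WT BM replicate 3 had the highest level of each. WT SP replicate 3 stood apart in Elane, with 72724 normalized counts beside 11112 to 37376 elsewhere. Its Mpo level was 40587, beside 5947 and 5256 in WT SP replicates 1 and 2 and 5172 to 53209 in the other groups. The member tests were also run without WT SP replicates 1 and 2, which leaves only replicate 3 in WT SP.

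Compared per kilobase of transcript, Aldoa, Pkm and Ldha lay above the other members, whose ranges partly overlapped. Aldoa was highest with a mean of 5737 normalized counts per kb over 12 libraries (range 5296 to 6517), followed by Pkm with 4744 (3415 to 5849) and Ldha with 3982 (3245 to 4890). These neighbours overlapped in range, whereas Ldha and the next member did not. Pfkl had 332 (209 to 451) and Hk2 had 273 (197 to 367) normalized counts per kb. Pgk1 had 160 (121 to 192), Pdk1 had 138 (93.6 to 185) and Slc2a1 had 132 (88.9 to 237). Pfkl and Hk2 overlapped, as did Pgk1, Pdk1 and Slc2a1. Hk2 and Pgk1 did not, but the top of the Slc2a1 range lay within the ranges of Hk2 and Pfkl. Gapdh, one of the most abundant messages of most cells, had 63.0 (28.6 to 115) normalized counts per kb here, overlapping Slc2a1, and Eno1 was listed at 0 in all 12 libraries. The 3 members with the most shared sequence thus had a mean of 160, 63.0 and 0 normalized counts per kb. Counting of reads that fit several places is not described in the sources used here, so these 3 levels are uncertain, and the part of shared sequence in them was not tested. Of the 222 genes that share a window with Gapdh, 10 had a row, and their sum was 141 to 323 normalized counts per library. The largest of them was Peli2, with 67.2 to 239, which shared only 6.13% of the windows of Gapdh. The sum therefore also holds reads of the partners themselves, and the part of Gapdh in it was not tested. Eno1b had 0 to 4.35 normalized counts, although 550 of the 1978 windows of Eno1 occur in no other gene.

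**Figure D1:**
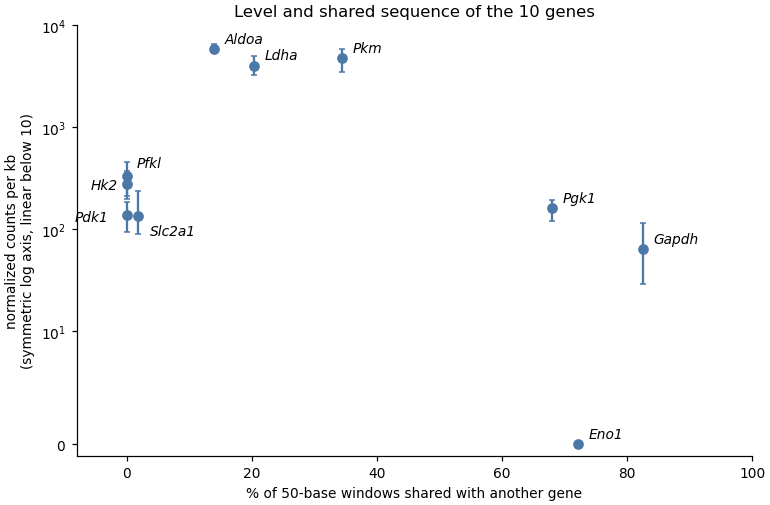
Mean normalized counts per kb over 12 libraries (vertical, symmetric log axis, bars from the lowest to the highest library) against the percent of 50-base windows that also occur in another gene (horizontal) for the 10 members. Aldoa, Pkm and Ldha lie at 3982 or more with 13.9% to 34.4% shared, while Pgk1, Gapdh and Eno1, with 68.0% or more shared, lie at 160 or less.

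The first question was whether blasts without STAT3β carried other amounts of these transcripts than WT blasts. No member passed an adjusted p under 0.05 in either organ by limma, fitted to the log2 of the normalized count plus 1 over all 11476 genes with Benjamini-Hochberg adjustment. The count was also 0 of 9 by edgeR and by DESeq2. Over all tested genes limma called 0.105% in SP and 0.0697% in BM. At an unadjusted p under 0.05 the only member by limma was Pkm in each organ beside 14.9% of all genes in SP and 2.59% in BM. This member varied with the setting, and leaving out WT SP replicate 3 added Slc2a1 in SP. DESeq2 added Gapdh in BM, TMM scaling left no member in either organ, quantile normalization gave Hk2 in SP and none in BM, and leaving out WT SP replicates 1 and 2 gave Gapdh in SP in place of Pkm. The groups of WT and Δβ libraries did not overlap for 2 of 9 members in SP (Hk2 and Pkm), beside 17.3% of all genes, and for 1 of 9 in BM (Pkm), beside 7.63%. Fold changes below are differences on the log2(normalized count + 1) scale with their standard error (SE). In bulk RNA of sorted cells, fewer cells of a kind and less RNA per cell cannot be told apart. The labels do not say whether the 3 libraries of a group came from separate animals, so these tests measure the spread between libraries only.

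At the entry step, Slc2a1 (NM_011400, chr4:119108711-119137983, plus strand) had 773, 500 and 389 normalized counts in WT SP and 290, 456 and 404 in Δβ SP. In BM it had 357, 444 and 446 in WT and 301, 397 and 418 in Δβ. WT SP replicate 1 was the highest of all 12 libraries, and the groups overlapped in both organs. The difference in SP was -0.50 (SE 0.25, limma adjusted p = 0.372), and it was -0.05 without WT SP replicates 1 and 2. Without WT SP replicate 3 it was -0.72 (limma unadjusted p = 0.0139, adjusted p = 0.0679). In BM it was -0.17 (SE 0.25, limma adjusted p = 1).

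Hk2, the hexokinase that binds mitochondria in many tumors, had 1088, 1256 and 1288 normalized counts in WT SP and 1316, 1612 and 1577 in Δβ SP. All Δβ SP libraries lay above all WT SP libraries. In BM the order was the other way, with 2009, 2021 and 1451 in WT and 1233, 1658 and 1580 in Δβ, and the groups overlapped. The log2 differences were 0.31 in SP (SE 0.16, limma adjusted p = 0.382) and -0.29 in BM (SE 0.16, limma adjusted p = 1). Pfkl (NM_008826, chr10:77986947-78010083, minus strand), the liver-type phosphofructokinase, had 927 to 1441 normalized counts in WT SP and 1092 to 1497 in Δβ SP. Its values in BM were 1161 to 1682 in WT and 778 to 1413 in Δβ, again with overlap. The differences of Pfkl were 0.09 and -0.40 (SE 0.24 for both). In SP the sign of Pfkl turned without WT SP replicates 1 and 2 (-0.25), and in BM it lay between -0.59 and -0.16 with 1 library left out.

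Aldoa (NM_007438, chr7:126795234-126800751, minus strand), which cleaves fructose-1,6-bisphosphate, was the steadiest member. It ranged from 8002 to 9846 normalized counts over all 12 libraries, and the highest was 1.23 times the lowest. Its residual SD was 0.07 on the log2 scale, and only 0.985% of the tested genes had a smaller one. Among the 200 genes nearest to it in mean level, 0.5% did. The genotype differences of Aldoa were -0.11 in SP and 0.03 in BM (SE 0.11 for both), with 95% intervals from 0.785 to 1.09-fold and from 0.870 to 1.21-fold. Under quantile normalization the SP difference was 0.13, so its sign depends on the scaling.

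Gapdh, the enzyme that makes NADH in this pathway, had 71.8, 89.0 and 124.8 normalized counts in WT SP and 61.2, 79.5 and 40.6 in Δβ SP. In BM the values were 91.3, 163 and 119.8 in WT and 94.6, 67.8 and 70.4 in Δβ. The means were lower in Δβ by 0.66 on the log2 scale in both organs (SE 0.31 for both, limma adjusted p = 0.354 in SP and 1 in BM), and the groups overlapped in both. Without WT SP replicates 1 and 2 the SP difference was -1.09. Gapdh rested on 38 to 145 reads a library and had the largest residual SD of the members, 0.40 on the log2 scale. Pgk1, which makes the first ATP of the pathway, had 350, 329 and 291 normalized counts in WT SP and 220, 296 and 279 in Δβ SP. Its BM values were 260 to 338 in WT and 264 to 301 in Δβ. The differences of Pgk1 were -0.29 (SE 0.15, limma adjusted p = 0.378) and -0.07 (SE 0.15), and WT and Δβ overlapped in each organ. Without WT SP replicates 1 and 2 the SP difference of Pgk1 was -0.15.

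Pkm (NM_011099, chr9:59656368-59679375, plus strand) encodes the muscle and proliferation forms of pyruvate kinase by alternative splicing, which counts per gene do not separate. In SP it had 14225, 13940 and 12301 normalized counts in WT and 9820, 11739 and 9664 in Δβ. In BM it had 11259, 12169 and 14058 in WT and 8306, 11107 and 9864 in Δβ. Every Δβ library lay below every WT library of the same organ. The difference was -0.38 in SP (SE 0.15, limma unadjusted p = 0.0313, adjusted p = 0.300) and -0.36 in BM (SE 0.15, limma unadjusted p = 0.0378, adjusted p = 1), which is 0.770-fold (95% interval 0.610 to 0.972) and 0.779-fold (0.617 to 0.983). The smallest adjusted p of Pkm in SP over all alternatives was 0.0880, without WT SP replicate 3. Quantile normalization brought the SP difference to -0.10, and leaving out WT SP replicates 1 and 2 brought it to -0.25. With the replicate number as a block the BM difference had a limma unadjusted p of 0.0554, though no label ties a WT number to the same Δβ number. Pkm shared 34.4% of its windows with 8 other genes, none of which had a row in the table.

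Ldha (NR_102727, chr7:46841475-46855627, plus strand) had 5360, 4729 and 5678 normalized counts in WT SP and 4756, 6245 and 4663 in Δβ SP. In BM it had 4929 to 5110 in WT and 4143 to 5634 in Δβ. The Δβ values thus enclosed those of WT in BM. Its differences were -0.02 and -0.05 (SE 0.15 for both), and the 95% intervals ran from 0.787 to 1.24-fold in SP and from 0.767 to 1.21-fold in BM. Pdk1 had 485 to 748 normalized counts in WT SP and 631 to 776 in Δβ SP. In BM the range was 572 to 960 in WT and 711 to 815 in Δβ, which lay within it. The differences of Pdk1 were 0.16 and -0.01 (SE 0.20 for both). Eno1 was not tested, since it was listed at 0 in every library.

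Over the 9 tested members, the median log2 fold change was -0.11 in SP, beside -0.01 over all tested genes, and -0.17 in BM, beside -0.02. In SP 6 of 9 members were below 0, beside 51.9% of all tested genes, and in BM 8 of 9, beside 54.7%. The median in SP turned to 0.13 under quantile normalization, with 4 of 9 members below 0, while in BM it stayed below 0 under every scaling tried.

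**Figure D2:**
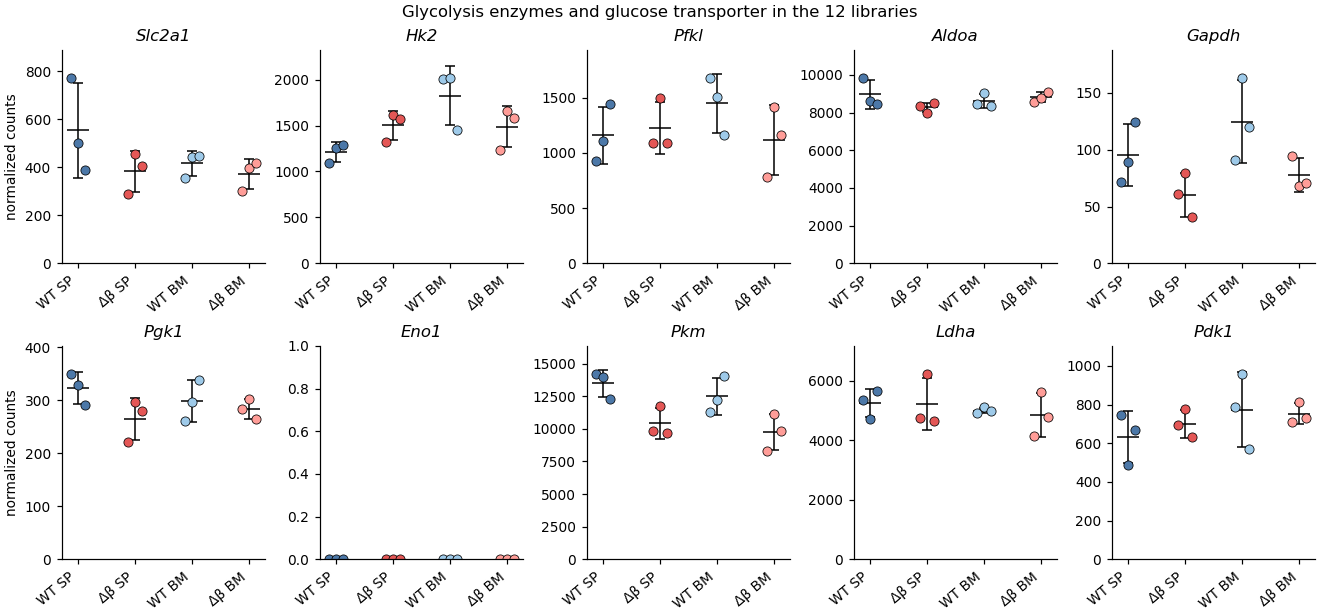
Normalized counts (vertical, linear axes from 0) of the 10 members in the 4 groups, with 1 point per library, a horizontal bar at the mean and whiskers of 1 SD, n = 3. Pkm in Δβ lies below WT in both organs, the mean of Hk2 is lowest in WT SP, Aldoa is nearly flat, and Eno1 is at 0.

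**Figure D3:**
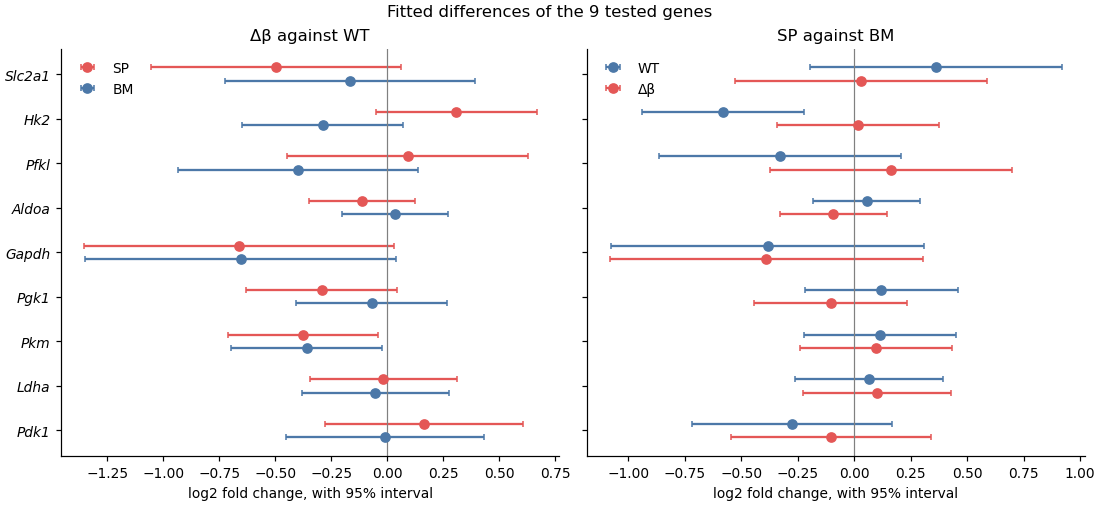
Log2 fold changes of the 9 tested members with 95% intervals (horizontal), for Δβ against WT in SP and BM on the left and for SP against BM in WT and Δβ on the right. On the left only the intervals of Pkm lie clear of 0, and on the right only that of Hk2 in WT, but none of these passes the adjusted test.

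Whether the genotype difference itself differed between the organs was tested as an interaction. No member passed (0 of 9 by limma, edgeR and DESeq2), nor did any of the tested genes (0%). At an unadjusted p under 0.05 there was 1 member, Hk2, beside 3.2% of all genes. The Hk2 difference was 0.60 higher in SP than in BM (SE 0.23, limma unadjusted p = 0.0249, adjusted p = 0.926), with a 95% interval from 0.09 to 1.10. For Pkm, whose differences in the 2 organs were alike in size, the interaction was -0.02 (SE 0.22, 95% interval -0.49 to 0.46). Those of the other members lay between -0.33 for Slc2a1 and 0.49 for Pfkl. Same-numbered SP and BM libraries deviated together in Δβ (r of deviations from group means 0.608 to 0.664), while the fit treats all 12 libraries as independent. The likeness of the Pkm differences in SP and BM is therefore not an independent repeat.

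Spleen and marrow blasts of the same genotype were then compared. In WT, 0 of 9 members passed the adjusted test by limma, edgeR or DESeq2, as did 0% of all genes by limma. At an unadjusted p under 0.05 there was 1 member, Hk2, beside 8.27% of all genes. Hk2 was also the only 1 of 9 whose groups did not overlap, beside 11.5% of all genes. Its 3 WT SP libraries (1088 to 1288 normalized counts) lay below the 3 WT BM libraries (1451 to 2021). The log2 difference was -0.58 (SE 0.16, limma unadjusted p = 0.00444, adjusted p = 0.580), which is 0.669-fold with a 95% interval from 0.522 to 0.857. It lay between -0.74 and -0.49 under every alternative, with a smallest adjusted p of 0.0687 without WT SP replicate 3. Slc2a1 was 0.36 higher in WT SP than in WT BM (SE 0.25, limma adjusted p = 0.693), but was 0.09 lower without WT SP replicates 1 and 2. Without WT SP replicate 3 it was 0.587 higher (limma unadjusted p = 0.0363, adjusted p = 0.1655). The other 7 members differed by -0.38 to 0.12.

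In Δβ blasts, 0 of 9 members passed the adjusted test between the organs by any of the 3 tools, as did 0% of all genes by limma. At an unadjusted p under 0.05 there were 0 members by each tool, beside 1.77% of all genes by limma. The groups did not overlap for 1 of 9 members, Aldoa, beside 7.42% of all genes. Aldoa had 8323, 8002 and 8488 normalized counts in Δβ SP and 8579, 8797 and 9094 in Δβ BM. This was a difference of -0.09 (SE 0.11, limma adjusted p = 1), or 0.937-fold with a 95% interval from 0.796 to 1.10. Hk2, lower in SP than in BM in WT, differed by 0.02 between the organs in Δβ (SE 0.16), and Gapdh by -0.39 (SE 0.31). The median over the members was 0.05 in WT and 0.02 in Δβ, beside 0.00 for all tested genes in each.

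Each member has isoenzymes, and their share of a family was computed per kilobase. Hk3, the hexokinase typical of myeloid cells, made up 72.7% to 84.9% of the 3 hexokinases in the 12 libraries. Hk1 made up 10.2% to 19.4% and Hk2 4.67% to 10.1%, so Hk2 was the least of the 3 in every library. Hk3 had 5338, 9152 and 11728 normalized counts in WT SP and 12103, 10706 and 9883 in Δβ SP, a difference of 0.39 (SE 0.25, limma adjusted p = 0.460). WT SP replicate 1 was its lowest library, and without WT SP replicates 1 and 2 the difference was -0.11.

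Slc2a1 made up 13.1% to 38.6% of 3 glucose transporters. Slc2a3 (GLUT3), the high-affinity transporter of neurons and leukocytes, was more variable than Slc2a1. Slc2a3 reached 1444 and 2000 normalized counts in replicates 1 and 2 of WT SP but 273 in the third, and 323 to 418 in Δβ SP. In BM it reached 1656 in WT replicate 3 and 1080 in Δβ replicate 1, and the other 4 libraries had 471 to 613. Slc2a6, a transporter found in leukocytes, had 1858 and 1106 in the first 2 WT SP libraries and 141 to 600 in the other 10. The SP differences were -1.28 (SE 0.67, limma adjusted p = 0.378) for Slc2a3 and -1.21 (SE 0.58, limma adjusted p = 0.355) for Slc2a6. Without WT SP replicates 1 and 2, which had the high Itgam, Ptprc and Ly6g levels given above, the differences were 0.47 and 0.07. The part of those markers in the difference was not tested.

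Pfkl (34.1% to 58.9%) and the platelet form Pfkp (33.9% to 58.9%) shared the phosphofructokinase pool, with 5.78% to 15.0% from Pfkm. Aldoa made up 98.3% to 99.5% of Aldoa and Aldoc together. Aldoc had 50.7 to 106 normalized counts in WT SP and 120.1 to 177 in WT BM, a difference of -0.84 (SE 0.35, limma adjusted p = 0.599). Ldha made up 93.4% to 99.4% of the lactate dehydrogenases. Among the enolases the muscle form Eno3 was the only one with a mean over 10, at 1070, 278 and 189 normalized counts in WT SP and 110 to 173 in the other 9 libraries. The low counts of Eno1 and Eno1b are uncertain, as 72.2% and 84.5% of their windows are shared. Eno3 can therefore not be ranked against them. The liver pyruvate kinase gene Pklr had at most 1.55 normalized counts, which is below 3 reads. Pdk3 was the main pyruvate dehydrogenase kinase with 47.4% to 64.4%, ahead of Pdk1 with 24.7% to 42.3%, and Pdk4 had at most 1.14 normalized counts.

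**Figure D4:**
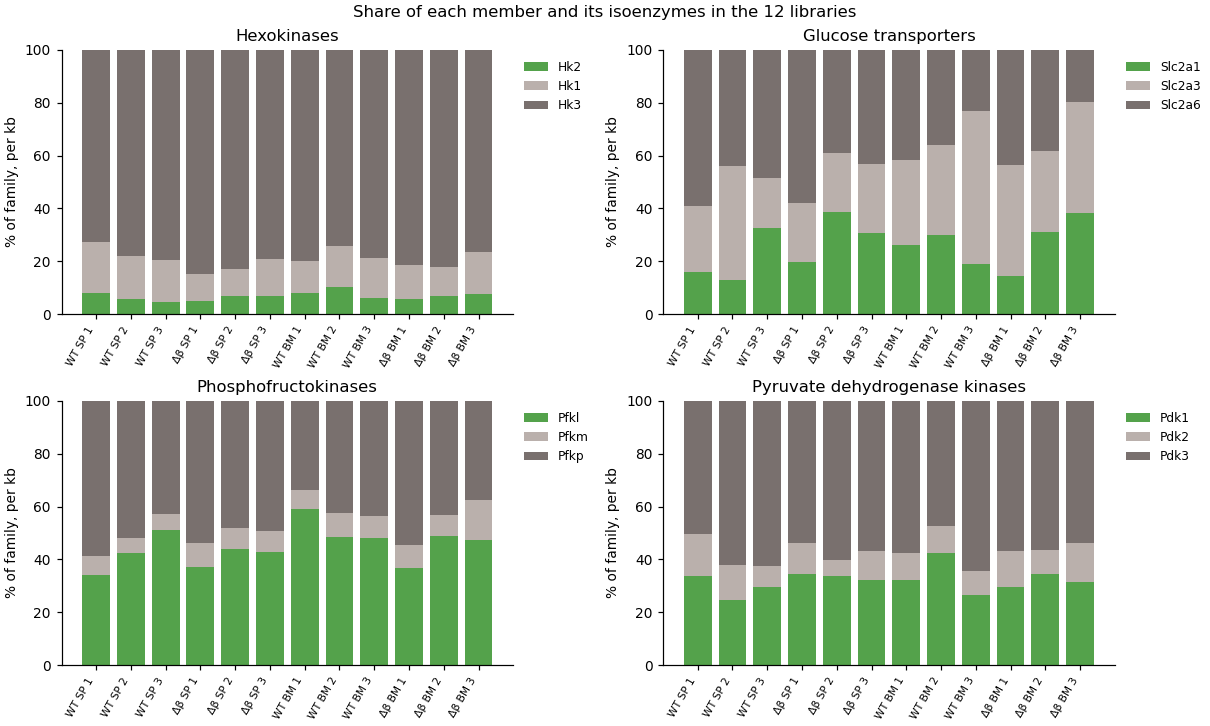
Percent of each family's normalized counts per kb (stacked, from 0 to 100) in the 12 libraries for hexokinases, 3 glucose transporters, phosphofructokinases and pyruvate dehydrogenase kinases, with the member in green. Hk2 stays at or below 10.1% of the hexokinases, while the share of Slc2a1 ranges from 13.1% to 38.6%.

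Lists of genes around the pathway held 92 genes, of which 76 were tested. None passed the adjusted test in any of the 5 comparisons by limma or edgeR. By DESeq2, 3 of the 76 passed for Δβ against WT in SP (Pfkfb4, Eno3 and Slc16a3) and 1 for SP against BM in WT (Eno3). Over all 11476 genes, DESeq2 called 457 and 111 in these comparisons. At an unadjusted p under 0.05 DESeq2 had 25.0% and 10.5% of the 76, beside 19.0% and 11.4% of all genes. Without WT SP replicate 3, limma called 11 and 4 of the 76 in these comparisons, beside 1886 and 598 of all tested genes. At an unadjusted p under 0.05 limma then had 38.2% and 26.3% of the 76, beside 34.6% and 25.8% of all genes. With WT SP replicates 1 and 2 left out, which leaves 1 WT SP library assumed to vary like the others, it called 1 (Gys1, a glycogen synthase, at -1.05) and 0. At an unadjusted p under 0.05, 3 were higher and 10 lower in Δβ SP than in WT SP, which is 17.1% of the 76, beside 14.9% of all genes. In BM 2 were higher and 0 lower (2.63%, beside 2.59% of all genes). They were Hif1an, an inhibitor of HIF-1, at 0.43 (SE 0.16) and the phosphatase gene Minpp1 at 0.30 (SE 0.13). The interaction of genotype and organ had 3, all below 0 (3.95%, beside 3.2% of all genes). These were Pfkfb4 at -0.65 (SE 0.26), Taldo1 at -0.37 (SE 0.15) and Gyg at -0.44 (SE 0.20). With the replicate block Pfkfb4 and Taldo1 had an unadjusted p of 0.0706 and 0.0780. Among the 10 tested genes of glucose entry and lactate export, 7 were below 0 in SP (4 without WT SP replicates 1 and 2), and the lactate exporter Slc16a3 was the 1 with an unadjusted p under 0.05. Its WT SP libraries held 3779, 2633 and 1612 normalized counts and those of Δβ SP 1342 to 1502, a difference of -0.80 (SE 0.25, limma adjusted p = 0.233). This was -0.16 when WT SP replicates 1 and 2 were left out. In BM its difference was -0.23 (SE 0.25).

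Of 15 further glycolytic enzymes, 9 were below 0 in SP. Eno3 differed by -1.42 (SE 0.49, limma adjusted p = 0.259), or by -0.40 without WT SP replicates 1 and 2, and Gpi1, which converts glucose-6-phosphate to fructose-6-phosphate, by -0.51 (SE 0.20, limma adjusted p = 0.295). Gpi1 had 11148, 13682 and 17950 normalized counts in WT SP and 9087 to 11000 in Δβ SP, without overlap and with its highest value in WT SP replicate 3, and the difference was -0.87 without replicates 1 and 2. Adpgk, an ADP-dependent glucokinase, differed by -0.74 (SE 0.32, limma adjusted p = 0.321), or by -0.37 without those libraries. Among the 5 regulators of fructose-2,6-bisphosphate, Pfkfb4 differed by -0.71 in SP (SE 0.18, limma adjusted p = 0.205), the smallest p of all these lists, and Pfkfb1 by 0.71 (SE 0.28, limma adjusted p = 0.295). These were -0.32 and 0.11 without WT SP replicates 1 and 2. Of the 8 genes of the pentose phosphate pathway 6 were below 0 in SP, with Pgd at -0.32 (SE 0.14, limma adjusted p = 0.324), and at -0.50 without those libraries. All 9 glycogen genes were below 0 there, beside 51.9% of all tested genes, with a median of -0.15 and with Pygl, the glycogen phosphorylase of liver and leukocytes, at -0.76 (SE 0.33, limma adjusted p = 0.329). Without WT SP replicates 1 and 2, 6 of the 9 were below 0 and Pygl was at 0.08. In BM 5 of the 9 glycogen genes were below 0.

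Of 13 tested transcriptional regulators, 11 were below 0 in SP (8 without WT SP replicates 1 and 2) and 10 in BM. Hif1a itself had 1207 to 1412 normalized counts in WT SP and 949 to 1481 in Δβ SP, a difference of -0.04 (SE 0.19). Myc differed by 0.34 (SE 0.34), or by -0.29 without those libraries. The oxygen sensors Egln1 and Egln3, which mark HIF-1α for degradation, differed by -0.51 (SE 0.16, limma adjusted p = 0.235) and -1.50 (SE 0.57, limma adjusted p = 0.284) in SP. Egln3 had 35.3, 66.8 and 137.0 normalized counts in WT SP and 16.8 to 32.0 in Δβ SP, and these groups did not overlap. Txnip, which limits glucose uptake, differed by -0.69 (SE 0.24, limma adjusted p = 0.265). Egln3 was at -2.48 and Txnip at -0.22 without WT SP replicates 1 and 2. Of the 12 genes of pyruvate entry into mitochondria 7 were below 0 in SP, where the phosphatase gene Pdp2 was at 0.50 (SE 0.19, limma adjusted p = 0.282). Of the 4 gluconeogenesis genes tested 3 were above 0 in SP, none at an unadjusted p under 0.05.

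Between the organs, 4 list genes were higher and 3 lower in WT SP than in WT BM at an unadjusted p under 0.05. This is 9.21% of the 76, beside 8.27% of all genes. The list genes included Eno3 at 1.41 (SE 0.49), Slc2a6 at 1.35 (SE 0.58), Slc16a3 at 0.65 (SE 0.25) and Pdp1 at -0.60 (SE 0.18), all with a limma adjusted p of 0.580 or more. Without WT SP replicates 1 and 2, Eno3 was at 0.39, Slc2a6 at 0.08, Slc16a3 at 0.00 and Pdp1 at -0.96, while without replicate 3 Eno3, Slc2a6 and Slc16a3 passed by limma (adjusted p = 0.0395, 0.0472 and 0.0260). In Δβ 1 was higher, Pfkp at 0.43 (SE 0.17), and 3 were lower, among them Pfkfb4 at -0.47 (SE 0.18) and Egln3 at -1.42 (SE 0.57), each with a limma adjusted p of 1. These 4 are 5.26% of the 76, beside 1.77% of all genes. With the replicate block Pfkfb4 had a limma unadjusted p of 0.0653, and the count was 5 (6.58% of the 76, beside 2.87% of all genes). The block joins libraries by number, a pairing read from the data in Δβ and not given by the labels.

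The members did not rise and fall as 1 block across the libraries. Over the 36 pairs of tested members the median Pearson's r of log2 levels was 0.25, with 25 pairs above 0 and 8 above 0.5, given as a description of 12 libraries that share depth scaling and groups. The closest pairs were Pgk1 with Slc2a1 (r = 0.78) and Pfkl with Hk2 (r = 0.76), and the least alike were Aldoa and Pfkl (r = -0.30). The first WT SP library held the highest value of 4 members (Slc2a1, Aldoa, Pgk1 and Pkm) and the lowest of Hk2. WT BM replicate 2 held the highest of Hk2, Gapdh and Pdk1, and Δβ BM replicate 1 the lowest of Pfkl, Pkm and Ldha. Outside the members, the genes whose log2 level was most like the mean standardised level of the 9 were Sec63 (r = 0.93), Ccdc47 (0.91), Smarca2 (0.87), Bri3bp (0.86) and Tmem191c (0.86). Sec63 had 1520 to 1862 normalized counts over the 12 libraries, lowest in Δβ BM replicate 1 and highest in WT BM replicate 2.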

How the data were processed

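Sorted MLL-AF9 blasts gave 3 poly-A libraries for each genotype and organ. The deposited signal is, for every gene, the authors' read count over a size factor of the library. The submitters' processing notes name FastQC, STAR, featureCounts, DESeq2 and GRCm38 (mm10), while versions, strand setting and the handling of multiply aligned reads are not given in the sources used here. All values came out whole when divided by the smallest step of their library (tolerance 1e-06), so whole reads were recovered. The header held 6 further columns of other samples, which were not used.

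Groups and replicate numbers were taken from the labels. Tests used R 4.3.3 and limma 3.58.1 (lmFit, eBayes with trend, Benjamini-Hochberg adjustment) on log2 values with a pseudocount of 1, for 11476 genes that reached a mean normalized count of 10, with all 12 libraries in 4 groups and 5 contrasts. Intervals cover 95%. edgeR 4.0.16 (quasi-likelihood) and DESeq2 1.42.0 were run on recovered reads as alternatives. The other alternatives were pseudocounts of 0.25 and 4, no filter, a minimum mean of 50, TMM, quantile normalization, eBayes without trend, 2-group fits, a replicate block and each library left out. Leaving out both WT SP replicates 1 and 2 was chosen after seeing the data. The script was tested on simulated data with 200 changed genes. Depth was 9001051 to 13859727 reads per library. A floor of 3 reads covers counting error only.

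Named genes were the members, their isoenzymes at a mean of 10 or more, up to 3 genes per list and contrast with the smallest unadjusted p under 0.05, and the 5 genes most like the members. Hif1a, Myc, Stat3 and the cell markers were named outside this rule after their values were seen. One gene that this rule names is not reported here. Members and lists were chosen with earlier results of these data known. Same-numbered SP and BM libraries deviated together in Δβ (r of deviations from group means 0.608 to 0.664, other numbers -0.485 to -0.177), a pairing read from the data, since the labels do not tie a number to an animal. This did not hold in WT (-0.237 to -0.00936).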

Additional observations from a re-analysis of the deposited data

How the results depend on the processing

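The count of members called was 0 in all 5 comparisons under every alternative. All 1071 values of a member under an alternative stayed on the same side of the adjusted threshold, though the sign of small differences, such as that of Ldha in SP, turned under some. The median over the members moved by more than its spread between replicates (0.12, log2) under quantile normalization. It went there from -0.11 to 0.13 for Δβ against WT in SP, from -0.01 to 0.17 for the difference of the genotype effects, and from 0.05 to -0.11 for SP against BM in WT. With 1 library left out, the median ranged from -0.15 to -0.06 for genotype in SP, from -0.26 to -0.07 in BM, from -0.11 to 0.11 for the difference, from -0.01 to 0.08 for organ in WT, and from -0.11 to 0.11 for organ in Δβ, where the low end came without Δβ BM replicate 1. The cause was not tested. The replicate block, which joins libraries by number, changed no member's call. Between genotypes the same numbers showed no likeness (r of deviations -0.166 to 0.202 in SP and -0.0893 to 0.128 in BM). Between organs they did so only in Δβ. For genotype the block is thus a change of setting and not a check of a known pairing. Under the block, Pkm in SP was at -0.38 (limma unadjusted p = 0.0475, adjusted p = 0.374), Pkm in BM at -0.36 (limma unadjusted p = 0.0554) and Hk2 between the organs in WT at -0.58 (limma adjusted p = 0.460).

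The number of all genes called for Δβ against WT in SP was 12, but 457 by DESeq2 and 1 to 1886 with 1 library left out, the highest without WT SP replicate 3. In BM it was 8, and 1 to 37 among the other settings. For SP against BM in WT it was 0, but 111 by DESeq2 and 598 without WT SP replicate 3. The smallest adjusted p of a member under any alternative was 0.0679, for Slc2a1 in SP without WT SP replicate 3. Gapdh rested on 38 to 145 reads a library. Among the pathway lists, calls appeared by DESeq2 and without WT SP replicate 3, as given with the lists.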
